A study of Mus musculus with 64 samples.

Results

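The 10 genes described here encode the main proteins of the basement membrane, measured by bulk RNA sequencing of mouse hearts: perlecan (Hspg2), the collagen IV chains Col4a1 and Col4a2, the laminin chains Lama2, Lama4, Lamb1, Lamb2 and Lamc1, and the nidogens Nid1 and Nid2. They were chosen by name as a family, with earlier results of these data known, and all 10 were among the 16913 genes of the deposited count table. The mice were C57BL/6J. TG mice carried the cTnT-delta160E transgene, a deletion variant of cardiac troponin T that serves as a model of hypertrophic cardiomyopathy, and nTG mice did not. HIIT (high-intensity interval training) mice ran on a treadmill for 6 weeks, 3 sessions a week of 31 minutes, with 4 intervals at 85% and 4 at 50% of the mean speed that the group reached in a graded exercise test, and Sed mice did no exercise. Of the males, 7 nTG and 9 TG mice were sedentary while 8 nTG and 8 TG mice were trained. Of the females, 8 nTG and 8 TG mice were sedentary while 10 nTG and 6 TG mice were trained, each library labelled as a biological replicate. The series text gives 7 to 9 samples per group. The labels name neither the promoter that drives the transgene nor the age of the mice.

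A basement membrane is a thin sheet of extracellular matrix that, in the heart, surrounds each cardiomyocyte and lies beneath the endothelium and around pericytes and smooth muscle cells. Laminins, trimers of an alpha, a beta and a gamma chain, assemble first and bind integrins and dystroglycan on the cell surface. Collagen IV forms a separate covalent network, and nidogens and the heparan sulfate proteoglycan perlecan bridge it to the laminin layer. Laminins with the alpha-2 chain belong mainly to muscle cells and those with alpha-4 mainly to endothelium.

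The gene columns could not be used under their own names. Taken by name, 32 of 64 columns went against the labelled sex by Xist and 4 Y-linked genes, 30 went against the labelled genotype by Tnnt2, which the transgene raises, and 45 went against at least 1 of these. Each column was therefore joined to the library whose column in the deposited lncRNA table it matched best over 389 autosomal transcripts present in both tables. All 64 pairs were best in both directions, with r from 0.599 to 0.863 where the next best reached at most 0.404, and 1 pair had the same name. After joining, no column went against its sex or genotype: Tnnt2 ranged from 2665 to 3428 CPM (counts divided by the library total and brought to a common size) in the 33 nTG libraries and from 6903 to 12001 CPM in the 31 TG libraries. All later CPM are divided by the TMM-scaled library total instead. Neither check bears on the training label. With columns by name, no member was called in any of the 4 genotype comparisons below, nor was any other of the 16913 genes. With training in nTG males 1 member was called (0.78% of all genes). Each result therefore rests on this join. Totals ranged from 34.6 to 67.1 M counts per library. All 10 cardiomyocyte markers were detected, with a summed level between 63442 and 94113 CPM, as heart tissue requires.

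All 10 members were well measured, with at least 1281 counts in every library. Per kilobase of merged exons, the levels fell into 3 tiers. Hspg2 stood at 133.9 CPM per kb over all libraries, followed by Lamb2 at 109, Col4a1 at 103 and Col4a2 at 101.9 CPM per kb. Lamc1, the gamma chain that most laminin trimers share, had 42.9, Nid1 29.6 and Lamb1 17.2 CPM per kb. Lama2 with 11.5, Lama4 with 9.33 and Nid2 with 7.96 CPM per kb were lowest, at the 84.7th, 81.5th and 78.6th percentile of all genes. Lamb2 and Col4a1 exchanged places between groups: Lamb2 was higher per kb in sedentary nTG males (115 against 100.1), and Col4a1 in sedentary TG males (123 against 106). Col4a1 and Col4a2, whose products join in a trimer of 2 Col4a1 chains and 1 Col4a2 chain, differed per kb by less than the SD of either gene in every group. The gene with the widest span was Nid2, whose highest library had 2.19 times its lowest, and the narrowest was Lama4, with a span of 1.32 times. The plot of CPM by group shows these levels for each mouse.

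**Figure D1:**
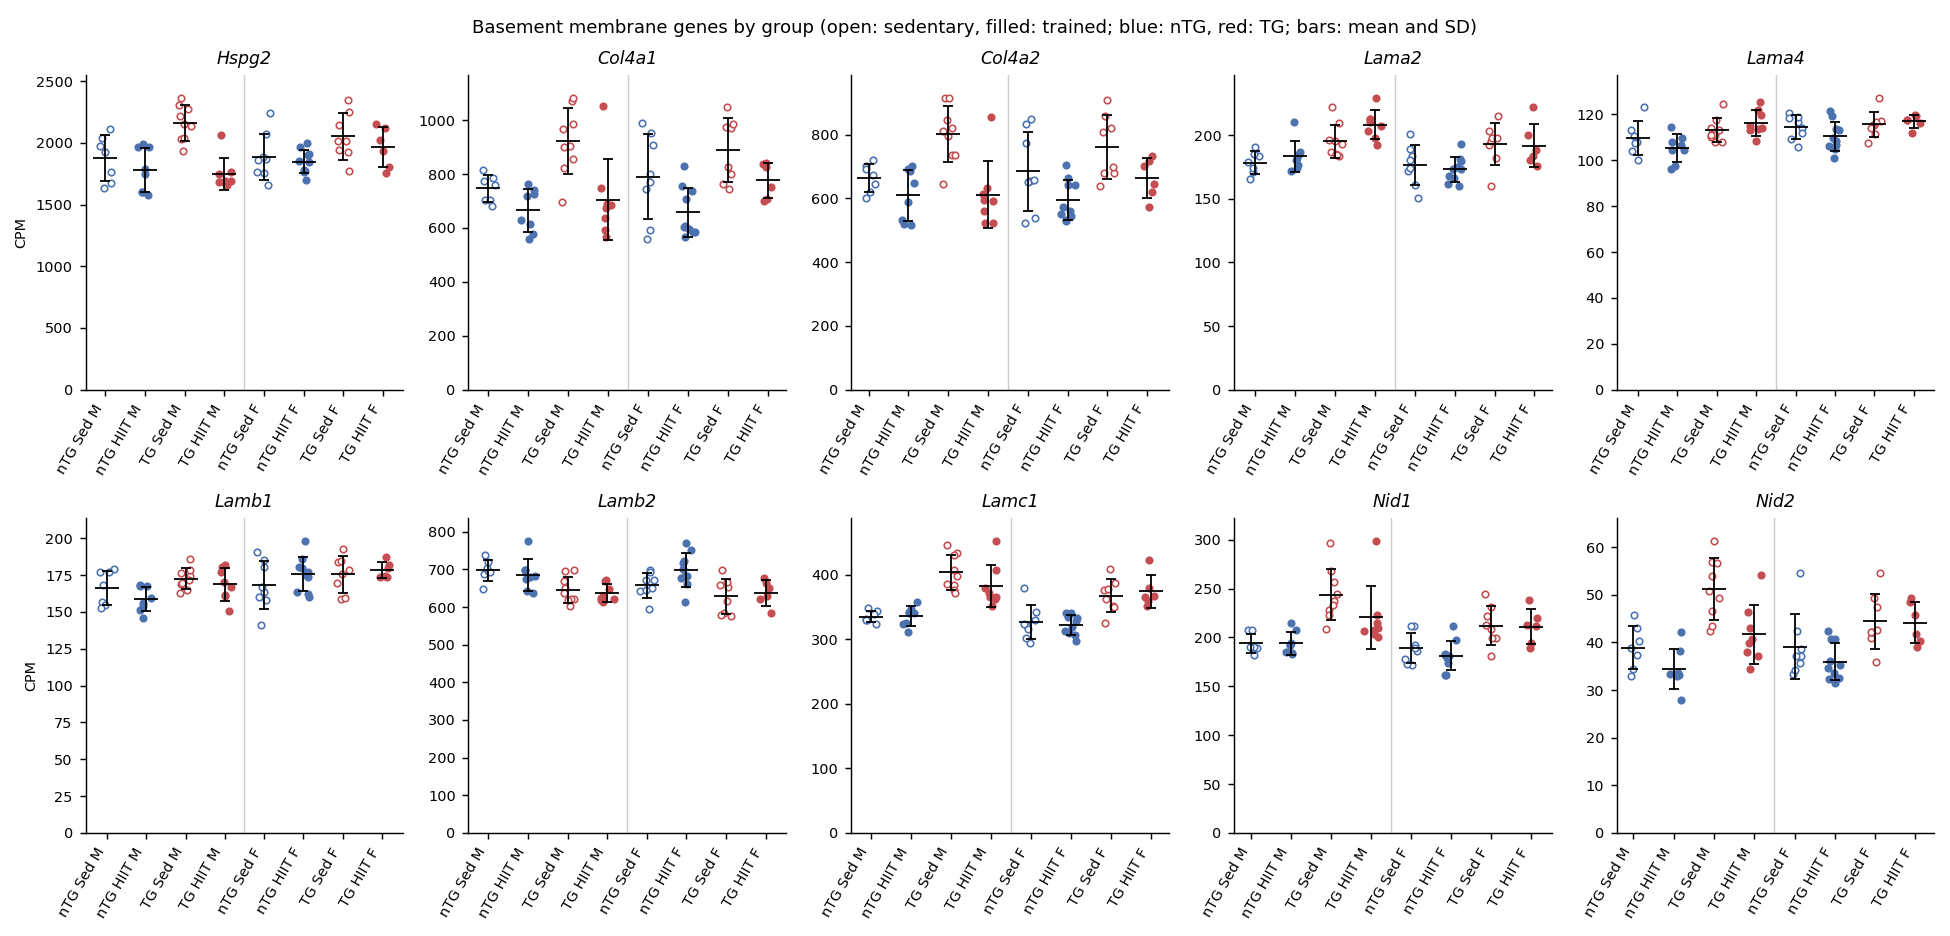
CPM of the 10 genes in each library (points), by group, with the group mean and SD (bars); M, males; F, females. Nid1 and Lamc1 of the 9 sedentary TG males lie above those of all 7 sedentary nTG males, and 1 trained TG male stands apart at 299 CPM for Nid1.

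Col4a1 and Col4a2 start head to head on chromosome 8 (GRCm38): Col4a1 covers 8:11198423-11312826 on the minus strand and Col4a2 covers 8:11312805-11449287 on the plus strand, so that their first exons overlap by 22 bases and their promoter windows by 78. The other members have starts of their own: Hspg2 lies at 4:137468769-137570630 and Nid1 at 13:13437551-13512269, while Nid2 lies at 14:19751265-19811787. Lamb2 lies at 9:108479736-108490530, Lamb1 at 12:31265234-31329644 and Lamc1 at 1:153218922-153332786. Lama2 (10:26980036-27619758) and Lama4 (10:38965515-39110188) share chromosome 10. Windows from 250 bases before to 50 after the annotated start were found in the RefSeq table (GRCm38.p6) for 7 of 10 members (Hspg2, Col4a1, Col4a2, Lama2, Lamb1, Lamb2 and Nid1). The GC box GGGCGG was found on either strand in 6 of these 7, all but Lamb2, and in 35.7% of all 32851 windows. The CCAAT box was found in Col4a1, Col4a2, Lamb1 and Nid1 and in 37.4% of all windows. TATAAA was in none of the 7 (13.6% of all windows), nor was the AP-1 motif TGANTCA (7.81%). Upstream stretches of 3 members, free of annotated exons, are shown because these genes moved differently below: Hspg2 fell with training in TG males, Nid1 rose with the transgene, and Lamb2 was the member that fell with the transgene. All are 5′ to 3′ on the plus strand, with matches in capitals (GC box on either strand in Hspg2 and Nid1, and ATTGG, the CCAAT box on the minus strand, in Nid1), which do not overlap each other. Their positions are chr4:137468553-137468768, chr13:13437352-13437550 and chr9:108479612-108479735.
Hspg2: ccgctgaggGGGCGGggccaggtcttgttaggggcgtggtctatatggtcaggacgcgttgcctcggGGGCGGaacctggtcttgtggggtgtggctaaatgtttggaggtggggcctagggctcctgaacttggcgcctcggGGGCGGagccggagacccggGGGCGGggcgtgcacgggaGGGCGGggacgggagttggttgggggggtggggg
Nid1: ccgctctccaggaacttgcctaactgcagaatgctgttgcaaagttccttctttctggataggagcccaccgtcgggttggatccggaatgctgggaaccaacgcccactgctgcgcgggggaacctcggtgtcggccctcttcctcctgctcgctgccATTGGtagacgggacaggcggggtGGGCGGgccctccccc
Lamb2: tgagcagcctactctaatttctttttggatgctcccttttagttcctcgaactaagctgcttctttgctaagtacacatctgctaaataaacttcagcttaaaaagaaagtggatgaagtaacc
The Hspg2 stretch of 216 bases holds 5 GC boxes, the Nid1 stretch of 199 bases holds 1 GC box and 1 CCAAT box, and the Lamb2 stretch of 124 bases holds no match to the 4 motifs.

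The first question was how the transgene changed these genes, within each sex and training state. In sedentary males, 7 of 10 members passed the test (edgeR quasi-likelihood test, Benjamini-Hochberg adjusted p under 0.05 over all genes), 6 higher and 1 lower in TG, where 20.6% of all genes passed (9.39% higher and 11.2% lower). In trained males 5 of 10 were higher and none lower (14% of all genes, with 5.65% higher and 8.31% lower). Of the 10 members, 1 was called in sedentary females, higher in TG (4.37% of all genes, with 1.58% higher and 2.78% lower), against 4 by limma-voom (Lama2, Lamc1, Nid1 and Nid2) and 0 in an edgeR fit of those groups alone. Trained females had 5 calls, 4 higher and 1 lower (14.8% of all genes, with 5.37% higher and 9.43% lower), and 3 without trained nTG female 9. The median log2 fold change of the 10 was 0.24, 0.12, 0.14 and 0.15 in this order, and that of all genes lay between -0.01 and 0.01. The plot of effects gives each value with its error.

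**Figure D2:**
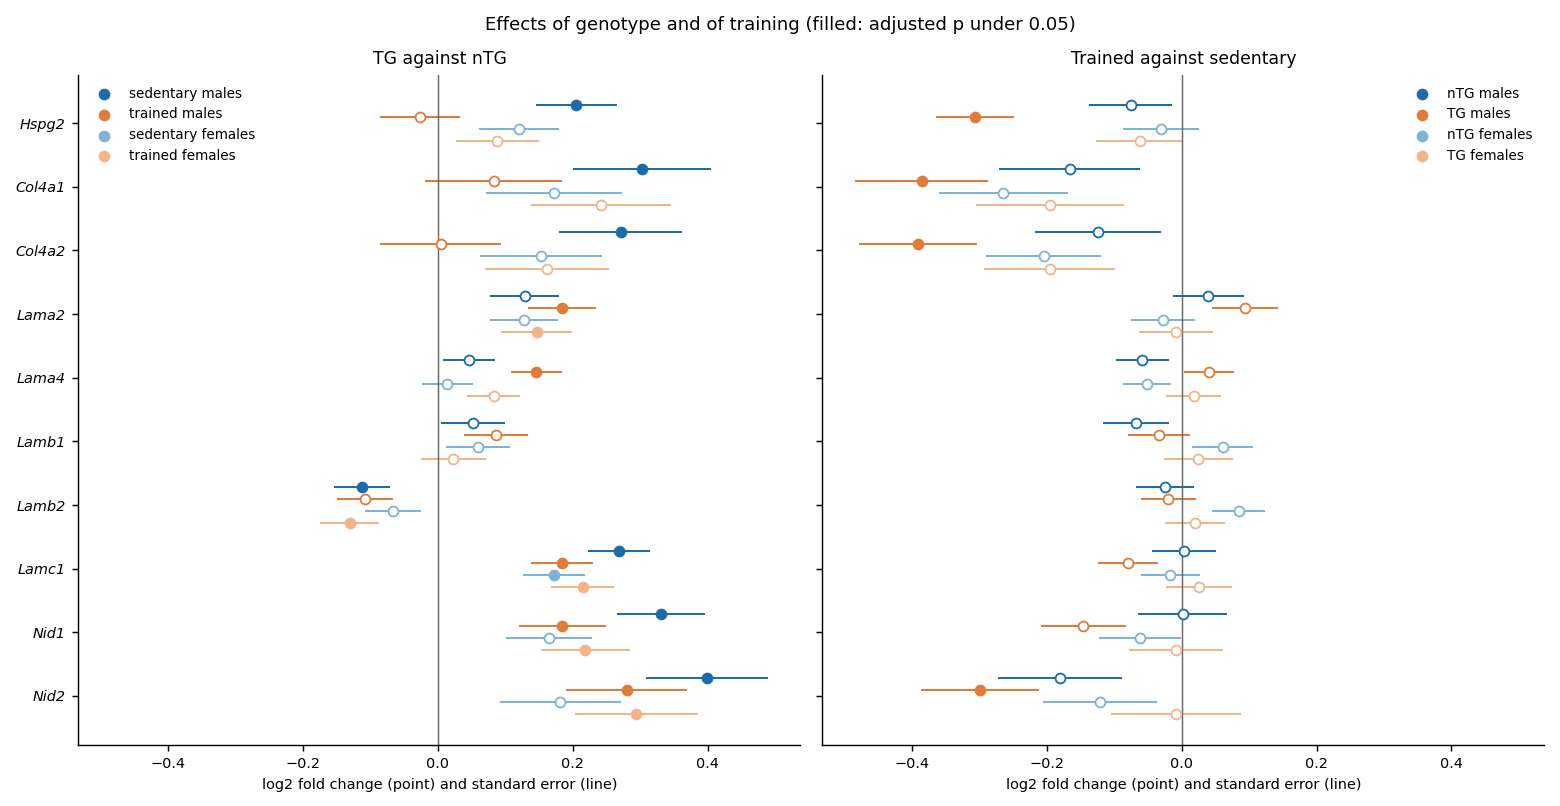
Log2 fold change (points) with its standard error (lines) for each gene, TG against nTG on the left and trained against sedentary on the right; filled points passed at an adjusted p under 0.05. Lamc1 is filled in all 4 genotype comparisons, Lamb2 lies below 0 in each of them, and the filled points for training are those of Hspg2, Col4a1, Col4a2 and Nid2 in TG males.

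Lamc1 was the member called in all 4 genotype comparisons, though in sedentary females the call was lost in the fit of those groups alone (0.18, adjusted p = 0.116). In sedentary males it ranged from 323 CPM over a median of 331 to 348 in the 7 nTG mice, and from 371 over 398 to 447 in the 9 TG mice. The groups did not overlap, which held for 2.1% of all genes in this comparison. Lamc1 rose by 20.5% (log2 fold change 0.27 ± 0.046, its standard error, adjusted p = 2.17e-05 by edgeR). In trained females it ranged from 298 over 324 to 341 CPM in 10 nTG mice and from 351 over 367 to 422 in 6 TG mice, again without overlap (2.57% of all genes). The log2 fold change there was 0.21 ± 0.047 (adjusted p = 0.000966 by edgeR). Trained males (0.18 ± 0.046, adjusted p = 0.0036 by edgeR) and sedentary females (0.17 ± 0.046, adjusted p = 0.0162 by edgeR) had smaller values, and their groups overlapped: 7 of 8 trained TG males lay above all trained nTG males. In sedentary females 294, 322 and 379.9 CPM were the lowest, median and highest of the nTG mice, against 325, 369 and 409 in TG. The difference between the sexes in this effect was -0.10 in sedentary mice (95% interval -0.22 to 0.03), so that a sex difference of that size was not resolved.

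Of the alpha chains, Lama2, which encodes the alpha-2 chain lost in a congenital muscular dystrophy, ranged from 172 over 181 to 211 CPM in trained nTG males and from 192 over 209 to 229.5 in trained TG males. It rose by 13.6% (0.18 ± 0.050, adjusted p = 0.00855 by edgeR), and 4 of 8 TG mice lay above all nTG mice. In trained females it rose by 10.7% (adjusted p = 0.0455 by edgeR), while the values of 9.35% in sedentary males (adjusted p = 0.0617) and 9.25% in sedentary females (adjusted p = 0.151) did not pass. Without trained nTG female 9 the call in trained females was lost (adjusted p = 0.0642), and under 7 alternatives sedentary males passed (adjusted p 0.0361 to 0.0467). The 4 estimates for Lama2 lay between 0.13 and 0.18 on the log2 scale, each with an SE of 0.050 to 0.052. Lama4, the alpha chain of vessel laminins, passed in trained males alone (96.1, 106 and 115 CPM as lowest, median and highest in nTG, 108, 114 and 126 in TG, 0.15 ± 0.038, adjusted p = 0.00563 by edgeR). In the other 3 comparisons its log2 fold change was between 0.01 and 0.08, and the difference of the genotype effect between trained and sedentary males was 0.10 (95% interval -0.01 to 0.21).

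Of the beta chains, Lamb1 was called in none of the 4 comparisons, with log2 fold changes from 0.02 to 0.09 and group means between 159 and 178 CPM. Lamb2, the beta-2 chain found at neuromuscular junctions, in vessels and in the glomerulus, was the member with negative values throughout. In sedentary males it ranged from 649 over 696 to 737 CPM in nTG and from 602 over 637 to 697 in TG. It fell by 7.48% there (-0.11 ± 0.042, adjusted p = 0.0467 by edgeR), and 5 of 9 TG mice lay below all nTG mice. In trained females, where nTG mice ranged from 615 over 692 to 769.7 CPM and TG mice from 584 over 640.2 to 679, it fell by 8.65% (adjusted p = 0.031 by edgeR). The values in trained males (-0.11, adjusted p = 0.0719) and sedentary females (-0.07, adjusted p = 0.459) did not pass. Both Lamb2 calls were marginal. With joined columns, the first was lost under 6 alternatives, with adjusted p from 0.0586 (DESeq2) to 0.0979 (without sedentary TG male 5), and the second under 6 as well, with adjusted p from 0.0503 to 0.112.

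The nidogens, which link laminin to collagen IV, had the largest rises in sedentary males. Nid1 ranged from 182 over 189.8 to 208 CPM in sedentary nTG males and from 209 over 237 to 296 in sedentary TG males, and the groups did not overlap. It rose by 25.8% (0.33 ± 0.065, adjusted p = 0.000142 by edgeR). Nid2 ranged from 33.04 over 38.9 to 45.7 CPM in the same nTG mice and from 42.3 over 50.7 to 61.3 in TG. It rose by 31.8% (0.40 ± 0.090, adjusted p = 0.000839 by edgeR), the largest change of the 10, and 7 of 9 TG mice lay above all nTG mice. In trained females Nid1 rose by 16.4% (0.22 ± 0.066, adjusted p = 0.0174 by edgeR) and Nid2 by 22.7% (0.29 ± 0.0915, adjusted p = 0.0213 by edgeR), with all 6 TG mice above the nTG median for each gene. In trained males Nid1 rose by 13.6% (adjusted p = 0.0431 by edgeR) and Nid2 by 21.4% (adjusted p = 0.026 by edgeR). Both calls were lost without trained TG male 4, which had 299 CPM of Nid1 where the other 7 had 200.3 to 223. Nid1 was then at 0.11 (adjusted p = 0.252) and Nid2 at 0.22 (adjusted p = 0.118), against 0.18 and 0.28 with it, and 3 of 10 members were called in trained males. The Nid1 call was also lost in the fit of those groups alone (0.19, adjusted p = 0.0777). In sedentary females, Nid1 (0.16, adjusted p = 0.144) and Nid2 (0.18, adjusted p = 0.291) did not pass. The edgeR test of a genotype by sex difference gave -0.17 (95% interval -0.35 to 0.01) for Nid1 in sedentary mice and -0.22 (-0.46 to 0.03) for Nid2, lower in females, and neither passed.

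By edgeR, collagen IV and perlecan were called with the transgene in sedentary males and in none of the other 3 groups of mice. Col4a1 ranged from 682 over 761 to 817 CPM in sedentary nTG males and from 697 over 906 to 1083 in sedentary TG males. Of the 9 TG mice, 8 lay above all nTG mice, and Col4a1 rose by 23.3% (0.30 ± 0.10, adjusted p = 0.0268 by edgeR). Col4a2 ranged from 601 over 673 to 721 CPM in nTG and from 644 over 810.1 to 915 in TG, and rose by 20.7% (0.27 ± 0.091, adjusted p = 0.0252 by edgeR). Hspg2 ranged from 1632 over 1923 to 2114 CPM in nTG and from 1931 over 2149.6 to 2366 in TG. It rose by 15.3% (0.21 ± 0.060, adjusted p = 0.00936 by edgeR), with all 9 TG mice above the nTG median. In trained males none of the 3 passed, and the log2 fold changes were -0.03 for Hspg2, 0.08 for Col4a1 and 0.0046 for Col4a2. In females the values for the 3 genes lay between 0.09 and 0.24, with adjusted p from 0.105 (Col4a1, trained) to 0.412. Col4a1 in trained females passed under limma-voom (0.29, adjusted p = 0.0167) and in an edgeR fit of those groups alone (0.26, adjusted p = 0.0336).

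The second question was what training changed. In TG males, 4 of 10 members were lower after training and none higher, where 18% of all genes passed, 10.3% higher and 7.6% lower. They were both collagen IV chains, perlecan and Nid2. Col4a1 ranged from 697 over 906 to 1083 CPM in the 9 sedentary TG males and from 565 over 680.1 to 1053 in the 8 trained ones. The highest trained value is trained TG male 4, and the next is 747 CPM. Col4a1 fell by 23.4% (-0.39 ± 0.099, adjusted p = 0.00573 by edgeR), and 6 of 8 trained mice lay below all sedentary ones. Col4a2 went from a median of 810.1 to 594 CPM, with 521 and 855 as the lowest and highest after training, and fell by 23.7% (-0.39 ± 0.088, adjusted p = 0.00262 by edgeR). Hspg2 ranged from 1931 to 2366 CPM in sedentary and from 1656 over 1694 to 2065 in trained TG males. It fell by 19.1% (-0.31 ± 0.058, adjusted p = 0.0011 by edgeR), and 7 of 8 trained mice lay below all sedentary mice. Nid2 went from a median of 50.7 to 40.3 CPM, with 34.5 and 54.2 as extremes after training, and fell by 18.7% (-0.30 ± 0.087, adjusted p = 0.0132 by edgeR). Without trained TG male 4 the same 4 calls held, and Lamc1 (-0.13, adjusted p = 0.027) and Nid1 (-0.23, adjusted p = 0.0029) passed as well. The sedentary TG males also serve in the genotype comparison of sedentary males, so the rise there and the fall here share those 9 mice. After training, the group means of Hspg2 and Col4a2 in TG males (1748 and 612 CPM) differed by less than 1 SD from those of trained nTG males (1779.6 and 609.8 CPM with SDs of 176 and 80.6). Those of Col4a1 (706 CPM in TG, 666 in nTG) also differed by less than 1 SD, while Nid2 was higher in trained TG than in trained nTG males (41.7 against 34.3 CPM), as given above.

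The laminin chains had no call with training in TG males: Lama2 was at 0.09 (95% interval -0.0016 to 0.19), Lama4 at 0.04, Lamb1 at -0.03, Lamb2 at -0.02 and Lamc1 at -0.08 (-0.17 to 0.0077). In nTG males no member passed, nor did any other gene (0 of 16913 by edgeR), and at an unadjusted p under 0.05 there were 999 genes and 0 members. In nTG females no member passed where 25 genes did (0.148%, of which 0.0237% lower). At an unadjusted p under 0.05 there were 2406 genes and 3 members, Col4a1 and Col4a2 (lower) and Lamb2 (higher, 0.08). Col4a1 ranged from 557 over 785 to 989 CPM in sedentary and from 566 over 607 to 832 in trained nTG females, and 9 of 10 trained mice lay below the sedentary median. Its log2 fold change was -0.26 (95% interval -0.45 to -0.08, adjusted p = 0.192 by edgeR), and that of Col4a2 was -0.20 (adjusted p = 0.255). In TG females no gene passed (606 genes and 1 member, Col4a2, at an unadjusted p under 0.05). Col4a1 ranged there from 745 over 899 to 1050.1 CPM in sedentary and from 701 over 788 to 843 in trained mice, with -0.19 on the log2 scale (95% interval -0.41 to 0.02). DESeq2 and limma-voom called no member in these 3 comparisons either. For Hspg2 the intervals stopped short of the -0.31 seen in TG males, with lower bounds of -0.20 in nTG males, -0.14 in nTG females and -0.19 in TG females. For Col4a1 the lower bound was -0.37 in nTG males, short of the -0.39 of TG males, and the intervals in both female comparisons reached past it. For Col4a2 the lower bounds were -0.31, -0.37 and -0.386, in the same order, beside an estimate of -0.391 in TG males. The TG male values have errors of their own. Their 95% intervals of -0.58 to -0.19 (Col4a1) and -0.56 to -0.22 (Col4a2) overlap those of these 3 comparisons. For Hspg2 the interval in TG males was -0.42 to -0.19. The training effect of TG males was not tested against that of females.

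A difference of the training effect between genotypes was tested directly and no member passed in either sex, nor did any other gene by edgeR (2503 genes and 2 members in males, and 1093 genes and 0 members in females, at an unadjusted p under 0.05). In males the estimate was -0.23 for Hspg2 (95% interval -0.40 to -0.07, unadjusted p = 0.00803 and adjusted p = 0.208 by edgeR), -0.27 for Col4a2 (-0.52 to -0.02) and -0.22 for Col4a1 (-0.50 to 0.06). So a fall in TG males beside no call in nTG males is not by itself a difference between them. In females the estimates of the 10 lay between -0.06 and 0.11. A difference of the genotype effect between sexes was not called for any member in sedentary or trained mice (0 of 16913 genes by edgeR, with 1471 and 910 genes and 0 members at an unadjusted p under 0.05). DESeq2 and limma-voom called no member in these 4 tests of differences. Sedentary nTG females against males gave no call among the 10, where 2.22% of all genes were called (0.846% higher and 1.37% lower in females). The widest of these sex values was that of Lamb2, -0.08 ± 0.043.

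Averaging each effect over the 4 strata of the other factors used all 64 mice, a comparison added after the data had been seen. Over strata, 9 of 10 members were called with the transgene, 8 higher and 1 lower, against 39% of all genes. Nid2 (0.29 ± 0.045), Nid1 (0.22 ± 0.032), Lamc1 (0.21 ± 0.023) and Col4a1 (0.20 ± 0.051) had the largest values. Lama4 rose by 5.17% and Lamb2 fell by 6.96%, with adjusted p of 0.00172 and 4.81e-05 by edgeR. Lamb1 (3.92%, adjusted p = 0.0581) did not pass, though it did under 5 alternatives (adjusted p 0.0147 to 0.0437). With training, 4 of 10 were lower and none higher, against 3.98% of all genes (2.35% higher and 1.63% lower): Col4a1 (-0.25 ± 0.051, adjusted p = 0.00362 by edgeR), Col4a2 (-0.23 ± 0.045), Nid2 (-0.15 ± 0.045, adjusted p = 0.0401) and Hspg2 (-0.12 ± 0.030). The call of Nid2 was lost without sedentary TG male 5 (adjusted p = 0.0533) or trained nTG female 9 (0.0504). These averages hold the same mice as the comparisons above.

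The balance between alternative chains was measured as a log2 ratio of counts within each library, which does not depend on scaling. None of 32 tests (4 ratios in 8 comparisons) passed after adjustment. The lowest unadjusted p-values were those of Lamb2 to Lamb1, the beta chains that replace each other in a trimer. This ratio was 2.07 ± 0.10 (SD, n = 7) in sedentary nTG and 1.90 ± 0.11 (n = 9) in sedentary TG males, and 2.11 ± 0.11 (n = 8) and 1.92 ± 0.12 (n = 8) in trained males. Its difference was -0.17 in sedentary males and -0.19 in trained males (exact permutation p = 0.00752 and 0.00559, two-sided, both 0.0619 adjusted over 32). It was -0.16 in trained females (exact permutation p = 0.00549, adjusted p = 0.0619) and -0.13 in sedentary females (exact permutation p = 0.119). In counts, Lamb2 exceeded Lamb1 3.57 to 4.32 times over the 8 groups. The log2 ratio of Col4a1 to Col4a2 was between 0.13 and 0.23 in the group means. Its TG minus nTG difference was 0.086 in trained females (exact permutation p = 0.00774, adjusted p = 0.0619) and 0.068 in trained males (exact permutation p = 0.0148, adjusted p = 0.0945). The Lama2 to Lama4 ratio had group means between 0.62 and 0.84, and its lowest p was that of training in nTG males (0.097, exact permutation p = 0.0305, adjusted p = 0.139). The Nid1 to Nid2 ratio went from 2.25 ± 0.11 (n = 9) to 2.40 ± 0.13 (n = 8) with training in TG males, which missed the threshold (exact permutation p = 0.0184, adjusted p = 0.0983).

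**Figure D3:**
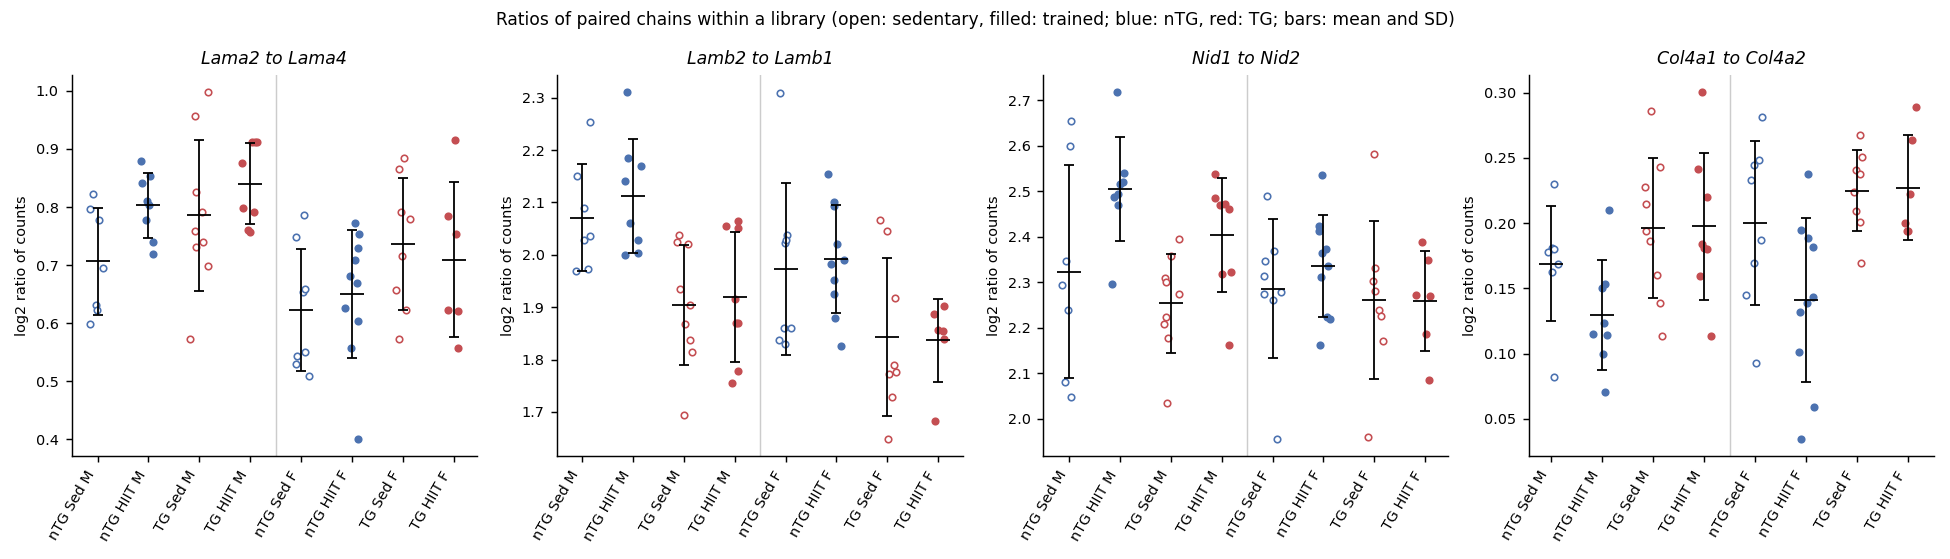
Log2 ratio of counts of 4 gene pairs in each library (points), by group, with mean and SD (bars). Lamb2 to Lamb1 has a lower mean in each TG group than in the matching nTG group, with overlap in every pair of groups, and no test passed after adjustment.

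Mice of a group differed together in some of these genes and not in others. With the group mean subtracted from log2 CPM, 45 pairs of members were correlated over the 64 libraries, which share their depth and scaling with both genes of a pair. After adjustment 23 pairs passed a permutation test of Pearson's r, 21 with a positive and 2 with a negative value. How often pairs of other genes pass the same test was not tested, so this count does not set the family apart from other genes. Col4a1 and Col4a2, which share a start region, had r = 0.973 (rho = 0.966, each with p = 1e-05, the smallest that the permutations can give), and r = 0.967 without the 2 libraries farthest from the median. Lamc1 and Nid1 had r = 0.815 (rho = 0.775, 0.776 without 2), and Hspg2 had r = 0.779 with Col4a2 (rho = 0.773, 0.737 without 2) and 0.773 with Nid2 (rho = 0.737, 0.725 without 2), all with p = 1e-05 for r and rho. All 15 pairs among Col4a1, Col4a2, Hspg2, Nid1, Nid2 and Lamc1 passed, with r of at least 0.523. Lama2 and Lamb2 passed with none of these 6, and Lamb1 passed with Hspg2 and both collagen IV chains. The negative pairs were those of Lamb2 with the alpha chains: r = -0.575 with Lama4 (rho = -0.54, -0.531 without 2, p = 1e-05 for r and 3e-05 for rho) and r = -0.35 with Lama2 (rho = -0.322, -0.253 without 2, p = 0.00969 and 0.0153, adjusted p = 0.0203 and 0.0327). The beta chains Lamb1 and Lamb2 had r = 0.0369 (p = 0.784).

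**Figure D4:**
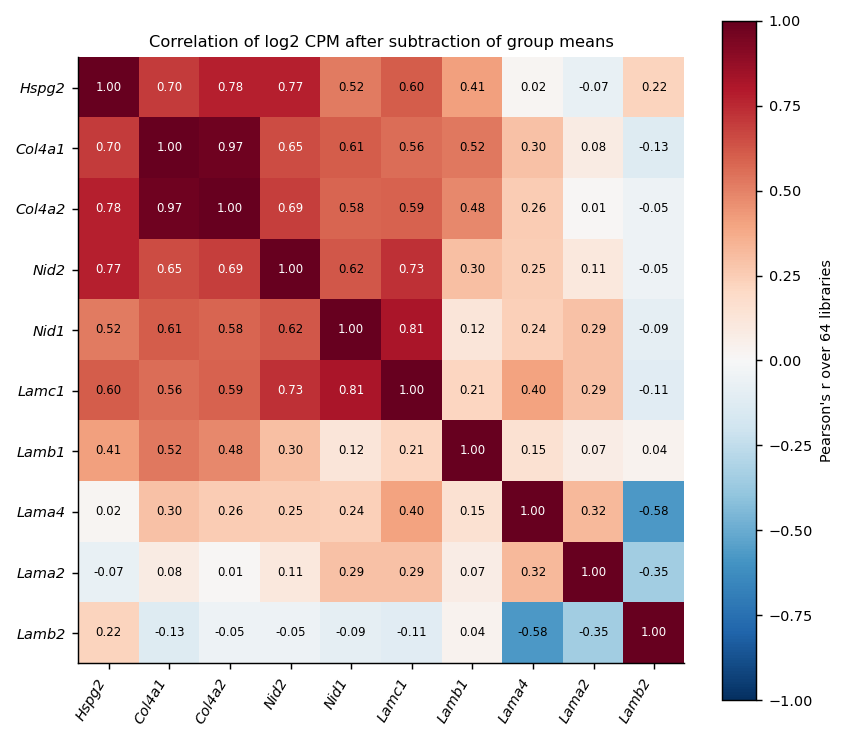
Pearson's r between the 10 genes over 64 libraries, from log2 CPM less the group mean; red is positive, blue negative. Col4a1 and Col4a2 reach 0.97, and the lowest value is -0.58 between Lamb2 and Lama4.

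The genes most like each member, by the same measure over 12172 genes with at least 50 counts on average, differed between members in the same way. For Col4a1 they were Fscn1 (r = 0.831), Sparc (0.825) and Col3a1 (0.825), and for Col4a2 Sparc (0.841), Fscn1 (0.825) and Col3a1 (0.793). Sparc encodes a collagen-binding glycoprotein and Fscn1 an actin-bundling protein. Nid2 was most like Sparc (0.848), Col5a1 (0.831) and Tgfb1 (0.826), and Hspg2 was most like Tgfb1 (0.824), Kctd17 and Ttyh3. Lamc1 was most like Pcolce (0.829), Col1a2 (0.817) and Col6a1 (0.798), and Nid1 was most like Stab1 (0.773), Mrc2 and Col1a2. For Lama2 (Arrdc3, 0.630), Lama4 (Anxa2, 0.697), Lamb1 (Klhdc8a, 0.622) and Lamb2 (Kcnj11, 0.734, a potassium channel subunit of muscle) the best values were lower. Sparc is itself in the list of other basement membrane genes below.

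Of 24 measured genes on a list of other basement membrane components, 6 were higher and 2 lower with the transgene in sedentary males, 5 and 1 in trained males, 1 and 1 in sedentary females, and 5 and 1 in trained females. The shares of all genes called higher and lower were 9.39% and 11.2% in sedentary males, 5.65% and 8.31% in trained males, 1.58% and 2.78% in sedentary females, and 5.37% and 9.43% in trained females, and they serve for each list below too. The median log2 fold change was 0.14, 0.14, 0.08 and 0.14, where that of all genes was near 0. Col4a5, a collagen IV chain encoded on the X chromosome, rose in all 4 (0.31 ± 0.055 in sedentary males, adjusted p = 2.72e-05 by edgeR, and 0.23 in sedentary females), and Lamb3 fell in all 4 (-0.60 ± 0.13 in sedentary males and -0.59 in trained females). Col15a1, a collagen of vessel and muscle basement membranes, rose in all but sedentary females (0.37 ± 0.11 in trained males). With training in TG males 7 of 24 were lower and none higher, among them Sparc (-0.35 ± 0.10, adjusted p = 0.0164 by edgeR) and Smoc2 (-0.24 ± 0.071), and the median was -0.14. Of all genes 10.3% were higher and 7.6% lower there, and these shares serve for training in TG males in each list below. The median with training was -0.15 in nTG males and -0.12 in nTG females, where none of the 24 was called. Lama1 and Egfl6, also on the list, were not analysed here.

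Of 11 genes for the folding, modification and crosslinking of collagen IV, 2 were higher with the transgene in sedentary males (Colgalt1, a collagen galactosyltransferase, 0.17 ± 0.040, and Loxl2, a lysyl oxidase of collagen IV, 0.44 ± 0.14), 1 was lower in trained males (P4ha2, a prolyl hydroxylase, -0.26 ± 0.068), and none was called in females. With training in TG males 2 were higher (Plod2, a lysyl hydroxylase, 0.18 ± 0.051, and Mia3, which helps load collagen into transport vesicles, 0.11 ± 0.034) and 4 lower (Colgalt1, Plod1, Plod3 and Pxdn, the peroxidase that crosslinks collagen IV). Colgalt1 was at -0.15 ± 0.038 and Plod1 at -0.18 ± 0.061.

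On the cell side, of 18 receptors and members of the dystrophin complex, 1 was higher and 6 lower in sedentary males, 1 and 2 in trained males, 2 and 2 in sedentary females, and 1 and 5 in trained females. Sgca (alpha-sarcoglycan) fell in each (-0.34 ± 0.059 in sedentary males, adjusted p = 2.25e-05 by edgeR, and -0.38 ± 0.061 in trained females), as did Bcam, a laminin receptor of the immunoglobulin family (-0.22 ± 0.051 and -0.34 ± 0.053 in the same groups). Ddr1, a collagen receptor kinase, rose in sedentary males (0.32 ± 0.098) and sedentary females (0.32 ± 0.097), and Dmd (dystrophin) rose in the comparisons other than that of sedentary males (0.20 ± 0.061 in sedentary females). With training in TG males 4 were higher and none lower, among them Itgb1, the beta-1 integrin (0.18 ± 0.043), and Sspn (sarcospan, 0.17 ± 0.037). Of 11 enzymes that glycosylate dystroglycan for laminin binding, 2, 3, 0 and 2 were lower with the transgene and none higher, with B4gat1 at -0.19 ± 0.043 in sedentary males.

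Of 14 matrix proteases and inhibitors, 5 were higher and 2 lower in sedentary males, 2 and 0 in trained males, 1 and 0 in sedentary females, and 3 and 1 in trained females. Mmp2, a gelatinase that cleaves collagen IV, rose in all 4, from 0.48 ± 0.14 in trained females to 0.87 ± 0.14 in sedentary males (adjusted p = 6.48e-06 by edgeR). Mmp14, the membrane protease that activates Mmp2, rose in all but sedentary females (0.72 ± 0.13 in sedentary and 0.36 ± 0.13 in trained males). With training in TG males Mmp14 (-0.50 ± 0.12, adjusted p = 0.00483 by edgeR) and Mmp2 (-0.39 ± 0.13) were lower, and Timp4, a metalloproteinase inhibitor of heart tissue, was higher (0.86 ± 0.19, adjusted p = 0.00266 by edgeR). In sedentary males Timp4 was lower in TG (-0.63 ± 0.20), and these 2 comparisons share the sedentary TG males.

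Markers of other cell types moved beside these genes, and their part in the results was not tested. In bulk tissue, fewer cells of a type and less RNA per cell cannot be told apart. With the transgene, fibroblast markers were called higher for 9 (sedentary) and 5 (trained) of 10 genes in males and for 1 and 4 in females, and none was lower. The counts that follow keep this order. Macrophage markers were higher for 10, 7, 0 and 8 of 10. In sedentary males the summed fibroblast level ranged from 1777 over a median of 1967 to 2587 CPM in nTG and from 2088 over 2773 to 2891 CPM in TG, and the macrophage sum from 223 over 269 to 306 in nTG and from 291 over 415 to 500.03 in TG. Cardiomyocyte markers were lower for 6, 4, 1 and 5 of 10. Of 10 endothelial markers 0, 1, 0 and 0 were called, each lower (Cdh5, vascular cadherin), and of 10 pericyte and smooth muscle markers 1 in each comparison, Abcc9, also lower. Over strata, Cdh5 and Tek were lower among endothelial markers, and among pericyte and smooth muscle markers Abcc9 was lower and Cspg4 higher (0.12 ± 0.037, adjusted p = 0.00929 by edgeR). Of all genes 18.5% were higher and 20.5% lower over strata, so these counts did not exceed those shares. Schwann cell markers were called higher for 0, 2, 0 and 0 of 8, and mesothelial markers for 2, 0, 0 and 1 of 4 measured. Of 7 blood markers measured, Slc4a1, an anion exchanger of red cells, was higher in sedentary males (1.84 ± 0.58), where TG male 5 had a blood sum of 4631 CPM and the other 8 had 291 to 1152, and 5 were lower in trained males, among them the globin gene Hba-a1 (-1.22 ± 0.30). The blood sum in trained males ranged from 574 over 936 to 1116 CPM in nTG and from 260.1 over 385 to 556 in TG, without overlap. The endothelial sum in sedentary males ranged from 1161 over 1235 to 1276 CPM in nTG and from 1139 over 1213 to 1279 in TG.

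With training in TG males, 2 endothelial markers (Cdh5 and Tie1), 3 pericyte and smooth muscle markers (Cspg4, Notch3 and Pdgfrb), 2 fibroblast and 5 macrophage markers were lower, of 10 each, and 2 of 10 cardiomyocyte markers were higher. Of all genes 10.3% were higher and 7.6% lower. The endothelial sum ranged from 1139 over 1213 to 1279 CPM in sedentary and from 1001 over 1113 to 1198 in trained TG males. The fibroblast sum went from a median of 2773 to 2285 CPM and the macrophage sum from 415 to 330.0 CPM. Blood markers were lower for 6 of 7 measured genes, and the highest blood sum, 4631 CPM, belonged to sedentary TG male 5, without which the count of members called with training in TG males was again 4. Of 8 Schwann cell markers 1 was higher, and of 4 measured mesothelial markers Krt18 was lower. Of 7 adipocyte markers 2 were measured and none was called. Trained TG male 4, the library that stood apart above, had the highest fibroblast sum of all libraries (3252 CPM), a macrophage sum of 497 CPM, the lowest cardiomyocyte sum (63442 CPM) and an endothelial sum of 1166 CPM, inside its group's range.

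**Figure D5:**
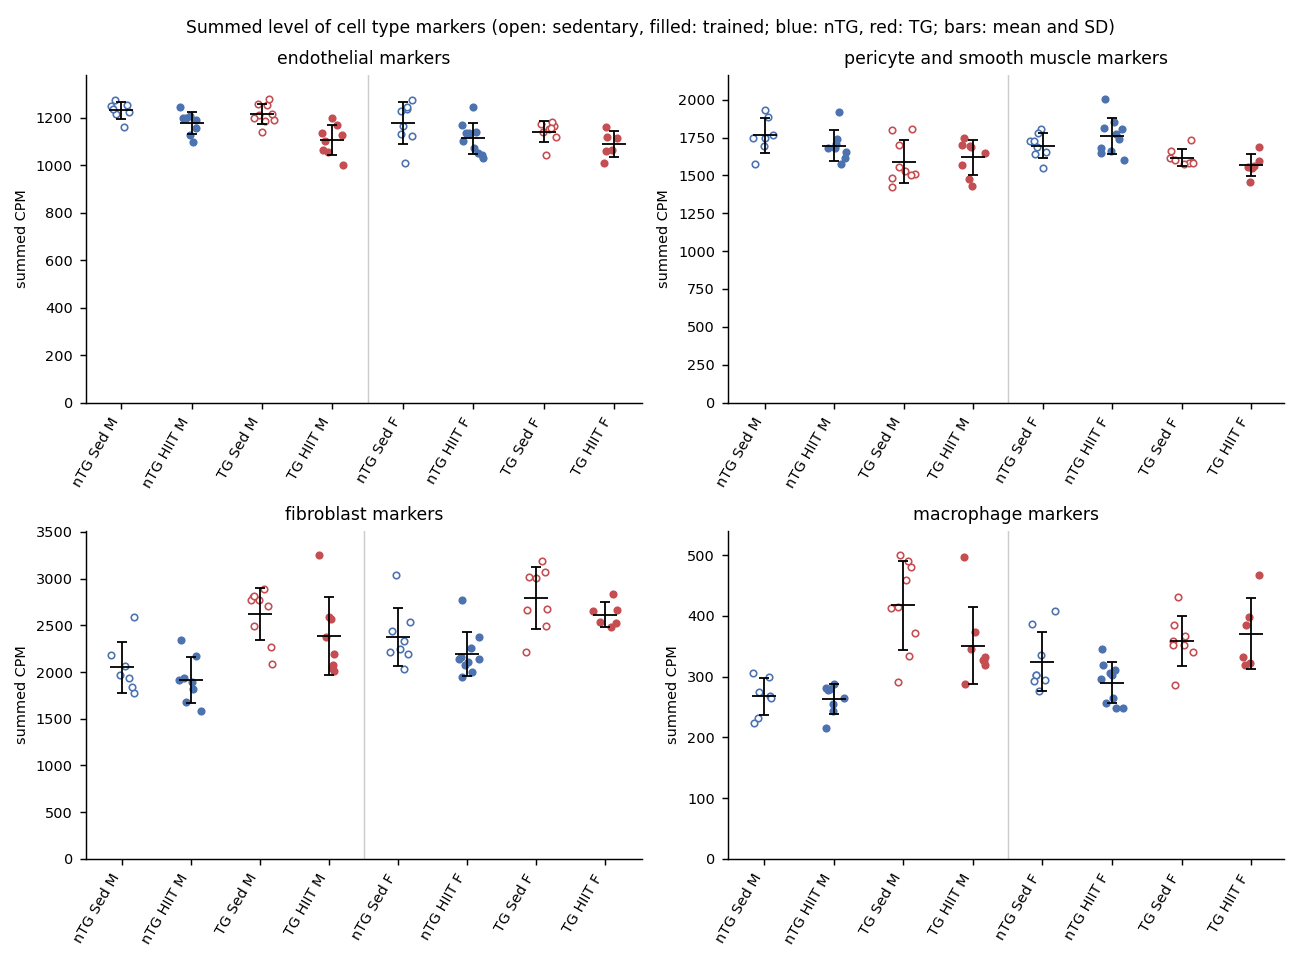
Summed CPM of 10 markers each of endothelial cells, pericytes and smooth muscle, fibroblasts and macrophages in every library (points), by group, with mean and SD (bars). The macrophage sum has its highest group median in sedentary TG males (415 CPM), and the endothelial sum overlaps between TG and nTG in every pair of groups.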

How the data were processed

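Total RNA of 64 mouse hearts was depleted of ribosomal RNA and sequenced, per the labels' protocols. The deposited gene table holds whole-number counts per gene, and the authors' lncRNA table holds expected counts per transcript (45 rows fractional), used only to match columns. The submitters' processing notes name STAR 2.7.8a, RSEM 1.3.3, cutadapt 2.3, FastQC 0.11.8, MultiQC 1.7 and GRCm38/mm10; their roles are not given in the sources used here. Symbols, positions and exon lengths came from GENCODE M21 (16887 of 16913 identifiers matched), and promoter windows from RefSeq (GRCm38.p6).

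Gene columns were joined to libraries through the best Pearson correlation of log2 values (pseudocount 0.5) over autosomal lncRNAs with a mean of at least 20 counts in both tables. Genes were tested with edgeR 4.0.16 (R 4.3.3): filterByExpr, TMM scaling, 1 mean for each of the 8 groups, the quasi-likelihood F test, and Benjamini-Hochberg adjustment over all 16913 genes at 0.05. An adjusted p in the text is from this test unless another is named. CPM use the TMM library sizes, except those of Tnnt2 in the label check, which use the unscaled totals. A standard error (SE) is the log2 fold change divided by the square root of F. Intervals are 95% intervals from the same fit. Ratios were compared with exact permutation tests (scipy 1.17.1) and correlations with 100000 permutations, all two-sided. The fit and the join were tested on simulated data. Totals had a median of 48.0 M counts, and mitochondrial genes took 13.4% to 20.4%.

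The members, gene lists and marker lists were chosen with earlier results of these data known. All members are named. From each other list, up to 2 genes each way with the smallest p were named per comparison, and others only as examples chosen after their values were seen, as were the 3 printed sequences. Some genes of the lists are counted but not reported by name here. The window shared by Col4a1 and Col4a2 lies in exons of both genes and its letters are not printed. Alternatives were columns by name, DESeq2 1.42.0, limma-voom with sample weights (limma 3.58.1), DESeq2 size factors, no filter, a mean of at least 50 counts, the compared groups only, the replicate number as a block, a pseudocount of 5 in ratios, and leaving out the library with the most blood transcripts, the one with the lowest total or, added after the data were seen, trained TG male 4.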

Additional observations from a re-analysis of the deposited data

Results flagged for a closer look

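Within-group spread was examined for 10 genes and 4 ratios in 8 groups, and 10 of 112 sets of values had 1 library far from the others by Dixon's criterion, where chance gives about 5.6. In 4 of them this was trained TG male 4, the highest of its group of 8: Hspg2 stood at 2065 CPM against 1656 to 1765 in the other 7, Col4a1 at 1053 against 565 to 747, Col4a2 at 855 against 521 to 632, and Nid1 at 299 against 200.3 to 223. The effect of leaving this library out is given with the results for trained males and for training in TG males. Its fibroblast and macrophage sums were high, and their part in these values was not tested.

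The other 6 sets belonged to 5 libraries. Lama2 of trained nTG male 3 was 211 CPM (others 172 to 187). Lamb2 of trained nTG male 7 was 775 CPM (others 638 to 699.9). Nid2 of sedentary nTG female 4 was 54.6 CPM (others 33.3 to 42.5), and the log2 ratio of Nid1 to Nid2 in the same mouse was 1.9565 (others 2.26 to 2.49). The log2 ratio of Lamb2 to Lamb1 was 2.31 in sedentary nTG female 2 (others 1.83 to 2.04) and 1.68 in trained TG female 6 (others 1.84 to 1.90).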

How the results depend on the processing

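Which column belongs to which library decided the results. With columns by name, 0 members were called in each of the 4 genotype comparisons, 0 with training in TG males, 0 for the genotype averaged over strata and 1 with training in nTG males (Lamc1, 0.26). Where 0 members were called, 0 of all 16913 genes were called too, and in nTG males 0.78% of all genes were. None of the 22 calls in comparisons of 2 groups was kept and 8 changed sign: Lama2 -0.019, Lama4 -0.034, Lamc1 -0.040, Nid1 -0.050 and Nid2 -0.0049 with the transgene in trained males, Lamc1 -0.013 and Nid2 -0.039 in trained females, and Nid2 0.079 with training in TG males. Over strata, Lama4 went to -0.0045 with the transgene. With training 6 members were called over strata (Lama2 among them, where 16.9% of all genes were called), and all members but Lama2 had the opposite sign to their joined values: Lamb1 0.014 (not called), Hspg2 0.055, Col4a1 0.091, Col4a2 0.073, Lama4 0.076, Lamb2 -0.10, Lamc1 0.15, Nid1 0.15 and Nid2 0.22, of which Hspg2, Col4a1 and Col4a2 were not called. By Xist and Tnnt2, the by-name columns mix sexes in all 8 groups and genotypes in 6 of them, the exceptions being the sedentary nTG males and females.

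With joined columns no call changed sign. Of the 22, DESeq2 kept 21, limma-voom 22, DESeq2 size factors 21, the filter at a mean of 50 counts 20, and the compared groups alone 18. In sedentary females limma-voom called 4 members and the fit of the compared groups 0, where the value above is 1. Leaving out sedentary TG male 5, trained nTG female 9 or trained TG male 4 gave 6 to 7 members in sedentary males, 3 to 5 in trained males, 3 to 4 in trained females and 4 to 6 with training in TG males, and 9 to 10 (transgene) and 3 to 4 (training) over strata. Without trained nTG female 9, Lama2 (adjusted p = 0.0642) and Lamb2 (0.0646) were lost in trained females, and without it or sedentary TG male 5 the call of Nid2 with training over strata was lost (0.0504 and 0.0533). Lama2 passed in sedentary males under 7 alternatives, and Lamb1 passed with the transgene over strata under 5 (DESeq2, its size factors, the filter at 50 counts, the replicate block and without sedentary TG male 5, adjusted p 0.0147 to 0.0437). Col4a1 passed in trained females under limma-voom (0.29, adjusted p = 0.0167) and in the fit of the compared groups (0.26, 0.0336). The low-count filter removed none of the 16913 genes, so leaving it out gave the same values. A pseudocount of 5 moved no ratio test across the threshold.

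The replicate numbers do not pair the samples: same-numbered libraries had correlations of -0.288 to 0.337 between their deviations from the group means, at most 2 pairs of a comparison were over 0.1, and at most 2 libraries of a comparison correlated best with their own number. The replicate block kept 18 of 22 calls, with 8 members in sedentary males and 1 (Lamc1) in trained females.

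Depth was not limiting for these genes, each with at least 1281 counts in every library. Standard errors of 0.036 to 0.11 on the log2 scale, with 6 to 10 mice a group, limit what could be called, and a value without a call does not show that a gene did not change.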
